A study of Mus musculus with 4 samples.

Results

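A set of 10 genes known as markers of the striosome and matrix compartments of the striatum were followed in total RNA from accumbens and dorsal striatum dissected from aged mice. The genes were taken by name. Kremen1, Lypd1, Bach2, Tshz1, Khdrbs3 and Rasgrp1 stood for the striosome, and Rasgrp2, Id4, Sgk1 and Calb1 for the matrix. All 10 were present among the 32531 gene rows of the count files, and all 10 were among the 14493 genes that passed the filter on low counts. Every animal was over 20 months old and belonged to the Drd1-TRAP line CP73, in which the Drd1 promoter drives EGFP fused to the ribosomal protein Rpl10a in neurons that express this dopamine receptor gene. Both groups therefore carried the transgene, and they differed in the dissected tissue. There were 2 input libraries of the accumbens nucleus and 2 of the dorsal striatum, and no purified (pulled-down) fraction was analysed here.

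The striatum is built mostly of spiny projection neurons (SPNs), which release GABA and belong to the direct or the indirect pathway. Striosomes are patches rich in mu opioid receptor that are set in the surrounding matrix, and SPNs of either pathway lie in both. Striosomal SPNs are known for their projections to dopamine neurons of the midbrain, and matrix SPNs for their part in sensorimotor circuits. In the accumbens, a division into core and shell is laid over this mosaic, and several compartment markers are not arranged there as they are dorsally. In bulk tissue, fewer cells of a type and less RNA per cell cannot be told apart.

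Library depth was 8478403 to 11849134 counts assigned to genes. Genes with any count numbered 16915 and 17417 in accumbens replicates 1 and 2, and 19519 and 19532 in dorsal striatum replicates 1 and 2. Dorsal striatum replicate 1 (8991788 counts) was close in depth to accumbens replicate 1 (8606099 counts). The part of this regional difference in the marker values was not tested. Of 8 SPN markers, none was at 0 in any library, and their summed level was 4190 to 5170 CPM (counts scaled to library size) in accumbens and 5830 to 5930 CPM in dorsal striatum. Over the genome, 186 genes passed an adjusted p of 0.05 (edgeR quasi-likelihood test), 144 higher and 42 lower in accumbens. Scaling by library size alone gave 72 higher and 172 lower, and the median over all genes, on the log2 scale, went from 0.02 to -0.15 with it.

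No compartment marker passed the threshold between the regions in the edgeR test, where 1.28% of all tested genes did. At an unadjusted p under 0.05 there were 3 of 6 striosome genes, all with higher levels in accumbens (10.9% of all genes), and 1 of 4 matrix genes, with a lower level there (8.27% of all genes). These 4 genes were 40% of the 10 markers, beside 19.2% of all genes tested. With DESeq2 no striosome gene and 1 matrix gene passed (6.1% of all genes), and limma-voom gave the same counts (2.97% of all genes). The libraries of the regions did not overlap in 6 of the 10 markers (60%), against 51.2% of all genes. Without accumbens replicate 2, 5 striosome genes (4 higher, 1 lower) and 1 matrix gene passed, when 28.9% of all genes did. Without accumbens replicate 1, 1 striosome and 2 matrix genes passed (18.2% of all genes), and without either dorsal striatum replicate none. The median log2 fold change, accumbens over dorsal striatum, was 0.33 for the 6 striosome genes and -0.19 for the 4 matrix genes.

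**Figure D1:**
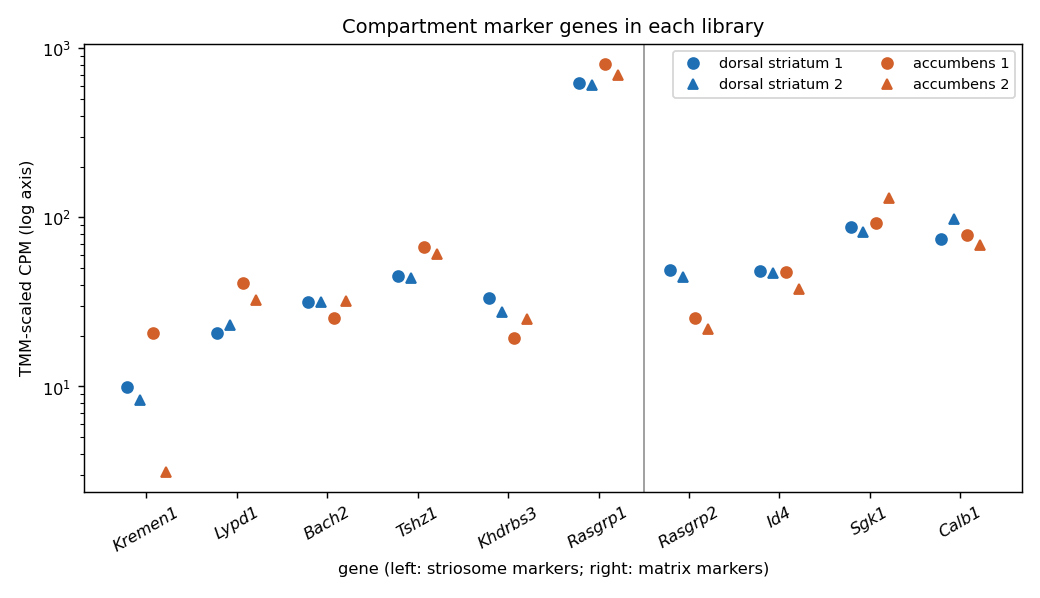
TMM-scaled CPM (log axis) of the 10 marker genes in each library, with blue for dorsal striatum, orange for accumbens, circles for replicate 1 and triangles for replicate 2. Rasgrp1 is at 610 to 805 CPM, Rasgrp2 is lower in both accumbens libraries, and the accumbens libraries differ most in Kremen1.

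The genes Rasgrp1 and Rasgrp2 encode paired members of one family of guanine nucleotide exchange factors that respond to calcium and diacylglycerol. Rasgrp1 (CalDAG-GEFII), the striosome marker, acts mainly on Ras, and Rasgrp2 (CalDAG-GEFI), the matrix marker, acts mainly on Rap1. Their promoter windows of 300 bases span a RefSeq start site on GRCm38.p6. The windows are shown because these related genes had fold changes of opposite sign, although neither gene passed the threshold in the edgeR test. Of the 10 markers, 6 had a window in the RefSeq table, and Rasgrp2 had 2, of which the first is printed. Capitals mark the GC box GGGCGG and the E-box CANNTG, searched on both strands, and overlapping matches were counted.
Rasgrp1, chr2:117342828-117343127, minus strand: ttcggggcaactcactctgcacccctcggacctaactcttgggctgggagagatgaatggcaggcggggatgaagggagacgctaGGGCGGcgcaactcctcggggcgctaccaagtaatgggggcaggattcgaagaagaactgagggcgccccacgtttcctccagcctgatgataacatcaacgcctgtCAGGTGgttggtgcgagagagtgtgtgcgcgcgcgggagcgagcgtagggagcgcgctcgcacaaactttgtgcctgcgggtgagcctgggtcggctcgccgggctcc
Rasgrp2, chr19:6399625-6399924, plus strand: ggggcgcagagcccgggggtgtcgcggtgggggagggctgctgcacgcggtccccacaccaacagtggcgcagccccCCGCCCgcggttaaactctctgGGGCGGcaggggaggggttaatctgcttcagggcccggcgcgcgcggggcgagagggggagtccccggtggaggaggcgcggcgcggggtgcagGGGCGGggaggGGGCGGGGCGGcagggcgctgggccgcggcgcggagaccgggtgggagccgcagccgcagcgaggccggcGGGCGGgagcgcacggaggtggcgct
The Rasgrp1 window held 1 GC box and 1 E-box and had a GC content of 63.7%. The Rasgrp2 window held 6 GC boxes and no E-box, with a GC content of 80.0%. The second Rasgrp2 window, not printed, held 2 GC boxes and no E-box, with a GC content of 66.0%. No match of one motif overlapped a match of the other. Among all 32851 promoter windows in the table, 35.7% held a GC box and 72.3% an E-box. The TATA box letters TATAAA (13.6% of all windows) and the cAMP response element TGACGTCA (1.79%) had no match in any of these windows. A match describes these letters and is not a binding site.

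Rasgrp2 (chromosome 19, 6399340 to 6415216, plus strand, GRCm38) had the largest difference of the 10 markers. It stood at 25.3 and 21.8 CPM in accumbens replicates 1 and 2, and at 48.6 and 44.7 CPM in dorsal striatum replicates 1 and 2. The lower dorsal library was therefore well above the higher accumbens library. The means were 23.5 ± 2.49 and 46.7 ± 2.79 CPM (SD, n = 2 each), a level 1.98-fold higher in dorsal striatum. The log2 fold change of -0.99 (SE 0.21, 95% interval -1.47 to -0.51) had an edgeR adjusted p of 0.064. Across 12 alternatives the log2 fold change stayed between -1.20 and -0.89, while the adjusted p ranged from 0.00112 to 0.56. The adjusted p passed with library size alone (0.0425), without the low-count filter (0.00324), with DESeq2 (0.00742) and with limma-voom (0.0452). In edgeR with a term for replicate number it also passed (0.0125). In edgeR it missed with DESeq2 size factors (0.0674), with upper-quartile scaling (0.0555) and with an offset for GC content (0.0524). It missed as well without either dorsal striatum replicate, where the log2 fold change was -0.95 (replicate 1 left out) and -1.05 (replicate 2 left out). With library size alone 1.68% of all genes passed, and without the filter 5.68%. The summed SPN markers were also lower in accumbens in both libraries (1 of 8 passed, Rgs9, and 5 of 8 had a negative fold change), and their part in the Rasgrp2 value was not tested.

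By decile of transcript GC content the median log2 fold change ran from -0.10 in decile 2 to 0.31 in decile 10. In decile 9, which held Rasgrp2, it was 0.22, and with an offset for GC content the value for Rasgrp2 was -1.20 (edgeR adjusted p 0.0524).

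Rasgrp1 (chromosome 2, 117279993 to 117343001, minus strand) was the most abundant of the 10 markers in every library. It stood at 805 and 695 CPM in accumbens replicates 1 and 2 and at 628 and 610 CPM in dorsal striatum. Both accumbens libraries lay above both dorsal libraries. On the log2 scale the fold change was 0.28 (SE 0.12, 95% interval 0.00 to 0.55), with an edgeR adjusted p of 0.258. The value fell to 0.11 with scaling by library size alone, and without accumbens replicate 2 it passed at 0.38 (edgeR adjusted p 0.0406).

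The ratio of Rasgrp1 to Rasgrp2 within a library does not depend on how libraries are scaled. Per kb of transcript it was 14.0 in both accumbens libraries and 5.67 and 5.99 in dorsal striatum replicates 1 and 2. The accumbens ratio was 2.41 times the dorsal one, and the replicates of a region lay close together. The pair was singled out after its values were seen, so no test is attached to this ratio.

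Lypd1 (chromosome 1, 125867622 to 125913101, minus strand) encodes a membrane-anchored protein of the Lynx family that modulates nicotinic acetylcholine receptors. Its level was 41.0 and 32.6 CPM in accumbens replicates 1 and 2 and 20.8 and 23.1 CPM in dorsal striatum. The groups were apart, and both accumbens libraries were the higher ones. The means of 36.8 ± 5.92 and 22.0 ± 1.63 CPM (SD, n = 2 each) differed 1.68-fold, with a log2 fold change of 0.74 (SE 0.23, 95% interval 0.22 to 1.27, edgeR adjusted p 0.139). This was the highest value among the 6 striosome genes, and it was positive in all 12 alternatives (0.57 to 0.90). It passed in 1 of them, without accumbens replicate 2 (edgeR adjusted p 0.00251). Exons of Lypd1 share 1202 bases with Gpr39 on the other strand, and Gpr39 had 0 counts in every library.

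Tshz1 (chromosome 18, 84011627 to 84087706, minus strand) encodes a zinc finger transcription factor of the teashirt family. It stood at 66.6 and 61.0 CPM in accumbens and at 45.1 and 43.6 CPM in dorsal striatum. Here too the accumbens libraries were both above the dorsal ones, by a mean of 1.44-fold. Its log2 fold change was 0.53 (SE 0.17, 95% interval 0.13 to 0.92, edgeR adjusted p 0.153) and lay between 0.35 and 0.59 in all alternatives. Without accumbens replicate 2 it passed (edgeR adjusted p 0.0163).

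Khdrbs3 and Bach2 had lower mean levels in accumbens, the opposite side from the other 4 striosome genes. Khdrbs3 (chromosome 15, 68928420 to 69101211, plus strand) encodes an RNA-binding protein of the STAR family that controls alternative splicing of neurexins. It was at 19.4 and 25.0 CPM in accumbens and 33.2 and 27.7 CPM in dorsal striatum. The groups did not overlap, but accumbens replicate 2 and dorsal striatum replicate 2 were close. The log2 fold change was -0.45 (SE 0.25, 95% interval -1.02 to 0.12, edgeR adjusted p 0.364), and it passed at -0.65 without accumbens replicate 2 (edgeR adjusted p 0.0359).

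Bach2 (chromosome 4, 32238804 to 32586108, plus strand) encodes a transcriptional repressor that pairs with small Maf proteins. It was at 25.4 and 32.1 CPM in accumbens and at 31.6 and 31.8 CPM in dorsal striatum. Accumbens replicate 2 lay above both dorsal libraries and accumbens replicate 1 below them. For Bach2 the log2 fold change was -0.14 with an interval of -0.66 to 0.37 (edgeR adjusted p 0.793), and 0.02 without accumbens replicate 1. An antisense gene, Bach2os, shares 537 exonic bases with Bach2 and had at most 2 counts in a library.

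Kremen1 (chromosome 11, 5191552 to 5261558, minus strand) encodes a receptor for Dickkopf proteins that dampens Wnt signalling. Its mean CPM was the lowest of the 10 in both regions, although Khdrbs3 was lower in accumbens replicate 1, and its libraries did not allow a direction to be read. Accumbens replicate 1 held 166 counts and replicate 2 held 25, or 20.6 and 3.13 CPM, on either side of the 9.98 and 8.29 CPM in dorsal striatum. The log2 fold change was 0.38 (SE 0.70), with a 95% interval from -1.23 to 1.99 and an edgeR adjusted p of 0.825. Without accumbens replicate 1 it was -1.54 (edgeR adjusted p 0.00812) and without accumbens replicate 2 it was 1.17 (edgeR adjusted p 0.00192), so each accumbens library alone gave a call in its own direction.

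Markers of other cells also differed between the accumbens libraries. The summed level of 5 endothelial genes was 45.3 and 12.6 CPM in accumbens replicates 1 and 2 and 18.3 and 8.13 CPM in dorsal striatum, with Cldn5 at 0 in accumbens replicate 2 and dorsal striatum replicate 2. The sum of 8 genes of cortical glutamatergic neurons was 294 and 166 CPM in accumbens and 94.1 and 19.9 CPM in dorsal striatum, with Neurod6 at 0 in dorsal striatum replicate 2. Neither list had a gene past the threshold. At an unadjusted p under 0.05 they had 0 and 4 genes, all higher in accumbens, as were 10.9% of all genes. DESeq2 called 0 and 1 gene in these lists (6.1% of all genes), and limma-voom 0 and 2 (2.97% of all genes). Counts from fits with 1 library in a group are not given here, since the share of all genes that passed varied widely between them. The part of these cells in the marker values, Kremen1 among them, was not tested.

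**Figure D2:**
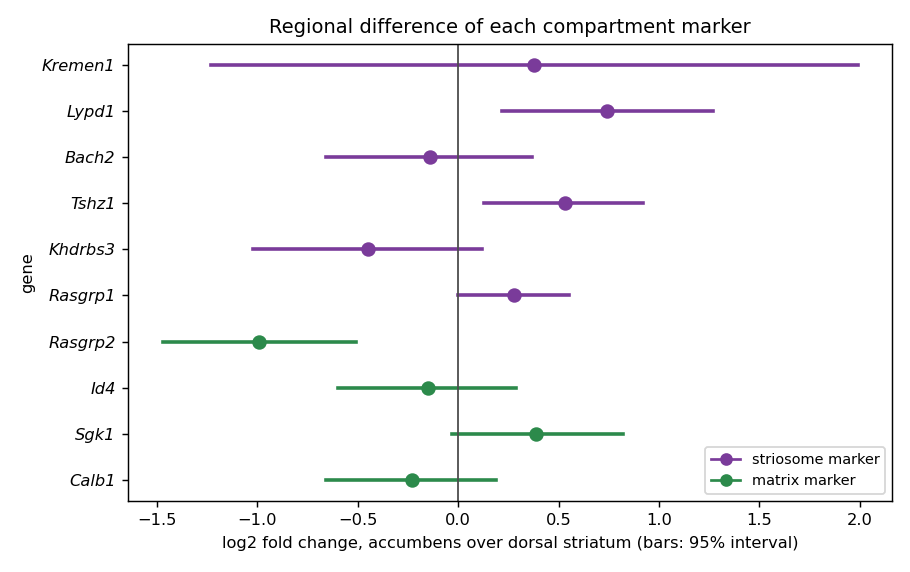
Log2 fold change of each marker, accumbens over dorsal striatum, with purple for striosome and green for matrix genes. Points are edgeR estimates and bars 95% intervals. The interval of Kremen1 spans -1.23 to 1.99, and that of Rasgrp2, from -1.47 to -0.51, is the farthest from 0.

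The other 3 matrix genes stayed closer to equal levels than Rasgrp2. Id4 (chromosome 13, 48261228 to 48266026, plus strand) encodes an inhibitor of basic helix-loop-helix transcription factors. It was at 47.6 and 37.8 CPM in accumbens and 48.2 and 46.7 CPM in dorsal striatum. Accumbens replicate 1 lay within the dorsal range and replicate 2 below it. For Id4 the log2 fold change was -0.15 with an interval of -0.60 to 0.29 (edgeR adjusted p 0.729), and it came to 0.00 without accumbens replicate 2. The antisense gene A330033J07Rik, which shares 82 exonic bases with Id4, had 3 to 10 counts per library.

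Calb1 (chromosome 4, 15881264 to 15908064, plus strand) encodes calbindin, a calcium buffer whose protein is a classic label of the matrix. It was at 78.4 and 68.3 CPM in accumbens and 74.7 and 97.6 CPM in dorsal striatum. Accumbens replicate 1 fell between the dorsal libraries, so the groups overlapped. For Calb1 the log2 fold change was -0.23 with an interval of -0.66 to 0.19 (edgeR adjusted p 0.54). It was -0.43 and -0.03 when dorsal striatum replicate 1 or 2 was left out.

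Sgk1 (chromosome 10, 21882184 to 21999903, plus strand) encodes a kinase induced by serum and glucocorticoids, which oligodendrocytes also express. It was at 93.2 and 130 CPM in accumbens and 87.5 and 82.2 CPM in dorsal striatum. It was the one matrix gene with a higher mean in accumbens, and accumbens replicate 2 carried most of the difference. The log2 fold change was 0.39 (SE 0.19, interval -0.03 to 0.82, edgeR adjusted p 0.294). Without accumbens replicate 1 it passed at 0.61 (edgeR adjusted p 0.00894), and without accumbens replicate 2 it was 0.13.

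Glial lists were set beside Id4 and Sgk1, since astrocytes express Id4. The summed level of 9 oligodendrocyte genes was 2600 and 2990 CPM in accumbens and 2800 and 1950 CPM in dorsal striatum. That of 8 astrocyte genes was 3380 and 2870 CPM in accumbens and 2960 and 2070 CPM in dorsal striatum. No gene of either list was at 0. Gja1 was the single astrocyte gene to pass, and it missed with each other scaling and without either dorsal striatum replicate (adjusted p up to 0.351). No oligodendrocyte gene passed. At an unadjusted p under 0.05, 1 was higher and 2 were lower, beside 10.9% and 8.27% of all genes. DESeq2 called 1 higher and 1 lower (6.1% of all genes), and limma-voom 1 higher (2.97% of all genes). For both lists, counts from fits with 1 library in a group are not given, since the share of all genes that passed varied widely there. The part of these cells in the Id4 and Sgk1 values was not tested.

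Levels were compared between genes as CPM per kb of the longest coding transcript, since the isoforms in use are unknown. In dorsal striatum Rasgrp1 led with 118 CPM per kb, followed by Sgk1 at 27.4, Calb1 at 20.4, Rasgrp2 at 20.3, Khdrbs3 at 16.1 and Id4 at 12.3 CPM per kb. Tshz1 (7.84), Bach2 (3.57), Lypd1 (3.40) and Kremen1 (1.88) completed this order of CPM per kb. The libraries of neighbours overlapped for Calb1 with Rasgrp2 and for Bach2 with Lypd1. In accumbens Rasgrp1 was at 143 CPM per kb, Sgk1 at 36.0 and Calb1 at 17.4. Khdrbs3 (11.8), Tshz1 (11.3), Id4 (11.1) and Rasgrp2 (10.2 CPM per kb) came next, and each overlapped its neighbours among these 4. Lypd1 (5.70), Bach2 (3.24) and Kremen1 (2.44 CPM per kb) were last, and Bach2 and Kremen1 overlapped. Rasgrp2 thus went from the level of Calb1 in dorsal striatum to below it in accumbens.

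Every striosome gene was also divided by every matrix gene within each library, which gave 24 ratios free of library scaling. In 11 of them (45.8%) both accumbens ratios were above both dorsal ratios, in 2 they were below, and 11 overlapped. Over all ordered pairs of tested genes 24.3% had an accumbens ratio above the dorsal one without overlap. The 24 ratios share their members and are not independent, so the counts are a description. Over Rasgrp2, all ratios but that of Kremen1 were higher in accumbens without overlap. Lypd1, Tshz1 and Rasgrp1 were higher without overlap over Rasgrp2, Id4 and Calb1 alike. Over Sgk1 no ratio was higher without overlap, and those of Bach2 (0.0950 and 0.0862 against 0.126 and 0.135) and Khdrbs3 (0.343 and 0.316 against 0.622 and 0.554) were lower.

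**Figure D3:**
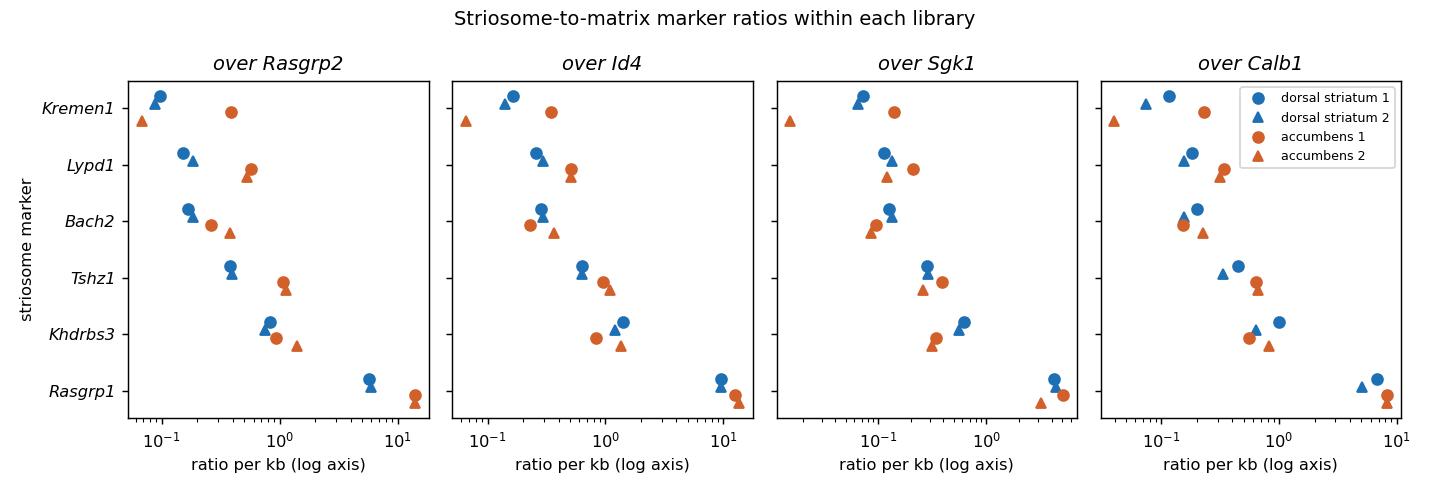
Ratio of each striosome gene to each matrix gene per kb of transcript (log axis), 1 panel per matrix gene, with blue for dorsal striatum and orange for accumbens libraries. The ratio of Rasgrp1 to Rasgrp2 is 14.0 in both accumbens libraries, and ratios to Sgk1 mostly overlap.

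The mean log2 CPM of the striosome genes minus that of the matrix genes summarised each library, to be read only between libraries. It was -0.03 and -0.40 in accumbens replicates 1 and 2 and -0.54 and -0.65 in dorsal striatum. Both accumbens values were higher, by 0.38 on average with a pooled SD of 0.19. Leaving out accumbens replicate 1 gave 0.19, and leaving out replicate 2 gave 0.56. Without Kremen1, a choice made after seeing the data, the values were 0.24 and 0.31 in accumbens and -0.12 and -0.19 in dorsal striatum. The average difference was then 0.43 with a pooled SD of 0.05.

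Other genes known from the compartments were listed beside the 10 markers. Of 7 further striosome genes 4 passed the threshold, all higher in accumbens, and the libraries of all 7 did not overlap (25.6% of all genes were higher without overlap, and 0.994% passed and were higher). Their median log2 fold change was 1.10. Nnat differed most, at 863 and 298 CPM in accumbens and 68.0 and 93.9 CPM in dorsal striatum, with a log2 fold change of 2.84 that was 1.87 without accumbens replicate 1 and 3.41 without replicate 2. Besides Oprm1 (1.47) and Pdyn (1.29), the list's calls included Foxp2, a forkhead transcription factor gene, at 181 and 171 CPM in accumbens and 107 and 95.6 CPM in dorsal striatum. The log2 fold change of Foxp2 was 0.80 (SE 0.14, edgeR adjusted p 0.0432). It missed with library size alone and without either dorsal striatum replicate, where its adjusted p reached 0.205. Oprm1 missed with DESeq2 size factors, with library size alone, with the GC offset and without dorsal striatum replicate 1 (adjusted p up to 0.192). The count of 4 was 2 with library size alone (1.68% of all genes passed then). It was 3 with DESeq2 size factors (1.01%) and with the GC offset (0.78%), and 5 with DESeq2 (6.1%). It rose without accumbens replicate 2 and fell without either dorsal striatum replicate, in fits with 1 library in a group. These genes were listed with earlier results of the data known, and the count is no independent evidence of a direction.

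Of 4 further matrix genes, 1 passed, and it was higher in accumbens. This was Gda, the gene of the purine enzyme guanine deaminase, at 343 and 317 CPM in accumbens and 148 and 181 CPM in dorsal striatum. Its log2 fold change of 1.01 (SE 0.14, edgeR adjusted p 0.0278) passed in all 12 alternatives. Gda and Rasgrp2, which are both used as matrix markers, therefore had fold changes of opposite sign, and of the pair only Gda passed. Ebf1, a transcription factor gene singled out after its values were seen, had a log2 fold change of -0.69 (edgeR adjusted p 0.227). Counts for this list from fits with 1 library in a group are not given.

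Markers of eccentric SPNs, a small and separate SPN class, all had positive fold changes, with a median of 0.87. None of the 5 passed in edgeR or limma-voom (1.28% and 2.97% of all genes). An unadjusted p under 0.05 was reached by 2 (19.2% of all genes), and DESeq2 called 2 (6.1%). Of the 5, 4 were higher in accumbens without overlap, beside 25.6% of all genes. Otof, which encodes otoferlin, was at 43.0 and 42.0 CPM in accumbens and 23.7 and 22.7 CPM dorsally (log2 fold change 0.87, edgeR adjusted p 0.0802). Cacng5, a regulatory subunit gene of AMPA receptors, had 0.69 (edgeR adjusted p 0.388). Counts from fits with 1 library in a group are left out for this list as well.

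Paralogs and partners of the 10 markers formed 9 lists with 73 genes, of which 63 were tested. Of these, 2 genes passed (3.17%, beside 1.28% of all genes), both higher in accumbens, with a median of 0.09 on the log2 scale. At an unadjusted p under 0.05, 15 were higher and 5 lower, beside 10.9% and 8.27% of all genes. DESeq2 called 9 higher and 2 lower (17.5% of the 63, beside 6.1% of all genes). With limma-voom 4 were higher and 1 lower (7.94%, beside 2.97% of all genes). Without accumbens replicate 1 there were 13 higher and 3 lower (18.2% of all genes passed then), and without accumbens replicate 2 there were 16 and 5 (28.9%). Without dorsal striatum replicate 1, 1 gene passed.

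Among the targets of the Lynx family to which Lypd1 belongs, the nicotinic receptor subunit gene Chrna4 was higher in accumbens. It was at 58.0 and 50.1 CPM against 24.4 and 21.9 CPM, a log2 fold change of 1.22 (SE 0.20, edgeR adjusted p 0.0431). It missed without either dorsal striatum replicate and with the GC offset (adjusted p up to 0.169). Chrnb2, whose product joins that of Chrna4 in one receptor, was at 37.0 and 38.0 CPM against 43.8 and 46.9 CPM (-0.27, edgeR adjusted p 0.47). Chrnb2 was named after its values were seen. Of the 9 tested genes in this list Chrna4 alone passed in edgeR (1.28% of all genes). At an unadjusted p under 0.05, 3 were higher (10.9% of all genes). DESeq2 called 3 (6.1%) and limma-voom 2 (2.97%), all higher. Ly6h (1.63, edgeR adjusted p 0.0828) and Ly6e (1.57, edgeR adjusted p 0.0609), 2 genes of the list named after their values were seen, had larger fold changes. Counts of the list from fits with 1 library in a group are not given.

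Among EF-hand calcium buffers and sensors related to calbindin, Hpcal4, a visinin-like sensor gene, was the 1 of 5 tested genes to pass. It was at 1210 and 1140 CPM in accumbens and 747 and 780 CPM dorsally (log2 fold change 0.62, SE 0.11, edgeR adjusted p 0.0432). It missed with library size alone and without dorsal striatum replicate 1 (adjusted p up to 0.0847).

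In the list on Ras, Rap and diacylglycerol signalling, which surrounds the Rasgrp genes, none of 14 genes passed. At an unadjusted p under 0.05, 2 were higher and 4 lower, beside 10.9% and 8.27% of all genes. DESeq2 called 2 higher and 2 lower (6.1% of all genes), and limma-voom called 1 lower (2.97%). Prkcb, a protein kinase C gene, had a log2 fold change of -0.36 (edgeR adjusted p 0.131), and Dgkb, a striatal diacylglycerol kinase gene, had -0.27 (edgeR adjusted p 0.246). Hras, a Ras gene named after its values were seen, was at 27.0 and 25.4 CPM in accumbens and 47.6 and 55.7 CPM in dorsal striatum. Its log2 fold change of -0.98 had an edgeR adjusted p of 0.0606. Neither Rasgrp3 (-0.19, edgeR adjusted p 0.757) nor Rasgrp4 (1.14, edgeR adjusted p 0.59) passed.

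The lists around the other markers had no gene past the threshold in edgeR. Among 6 tested Dickkopf and LRP genes around Kremen1, Lrp6 had a log2 fold change of 0.09 and Dkk3 of 0.23. In that list 1 gene was higher at an unadjusted p under 0.05, as were 10.9% of all genes. Among 6 partners of Bach2, Nfe2l1 had 0.31 and Mafg -0.08, with 1 higher at that p. The paralogs of Tshz1 were Tshz2 at 0.51 and Tshz3 at -0.37, with none at that p. DESeq2 and limma-voom called no gene in these 3 lists.

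Of 6 STAR proteins and neurexins around Khdrbs3, all had positive fold changes, with a median of 0.40 on the log2 scale. Nrxn3 had a log2 fold change of 0.41 and Qk of 0.07. Some of the 95% intervals included 0 (Qk -0.41 to 0.54), as did that of Khdrbs3 itself (-1.02 to 0.12). At an unadjusted p under 0.05, 3 genes were higher (10.9% of all genes). DESeq2 called 2 (6.1% of all genes) and limma-voom 0 (2.97%). Among 5 tested Id and E protein genes around Id4, the E protein gene Tcf4 was at 214 and 207 CPM in accumbens and 143 and 116 CPM in dorsal striatum (0.70, edgeR adjusted p 0.0658), and Tcf12 had 0.35. In that list 3 were higher at an unadjusted p under 0.05, and DESeq2 and limma-voom called 1 each. Of 10 genes of the glucocorticoid response and of ion transport control around Sgk1, Nedd4l had 0.17 and the clock gene Per1 0.47, 1 was higher at that p, and DESeq2 and limma-voom called none. Fkbp5, a glucocorticoid target named after its values were seen, had -0.26 (edgeR adjusted p 0.602), the opposite sign to Sgk1.

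**Figure D4:**
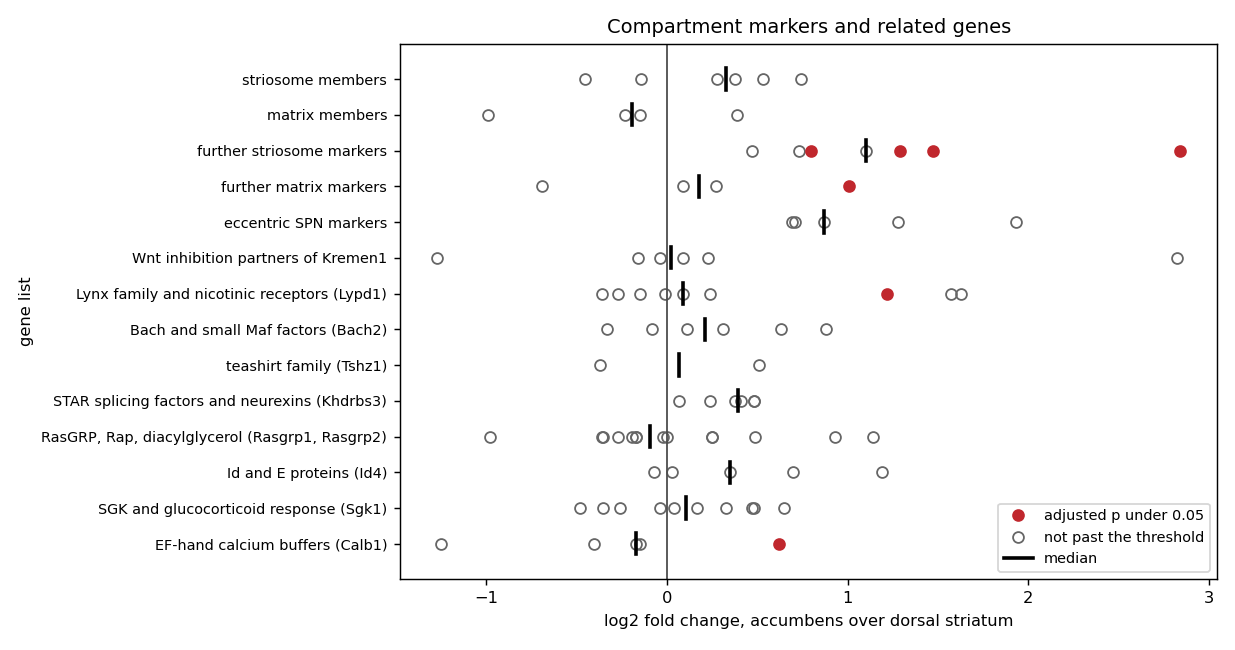
Log2 fold changes, accumbens over dorsal striatum, of the 10 markers and of the related lists. Each circle is a gene, red circles passed an adjusted p of 0.05 and black bars are medians. The striosome members have a median of 0.33 and the 7 further striosome genes of 1.10.

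Lists for the remaining cell types were measured in the same fit. Among 7 tested interneuron genes Sst alone passed in edgeR, higher in accumbens (log2 fold change 1.59, edgeR adjusted p 0.0233). Of the 7, 3 had positive and 4 negative fold changes, with a median of -0.13. In this list 2 genes were higher at an unadjusted p under 0.05 (10.9% of all genes). DESeq2 (6.1% of all genes) and limma-voom (2.97%) called 2 each. Genes of oligodendrocyte precursors, microglia, septum, and hypothalamus or pallidum had none past the threshold. At an unadjusted p under 0.05 these lists had 1, 1, 0 and 1 gene, and DESeq2 called 1 gene of hypothalamus or pallidum and limma-voom none. Their counts from fits with 1 library in a group are not given. Median log2 fold changes were 0.43 for precursors, 0.46 for microglia, -0.97 for septum and 0.07 for hypothalamus or pallidum. The summed septum level was 26.5 and 36.4 CPM in accumbens and 33.6 and 78.3 CPM in dorsal striatum, with Zic4 at 0 in accumbens replicate 1. Vip and Aif1 were also at 0 in that library.

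**Figure D5:**
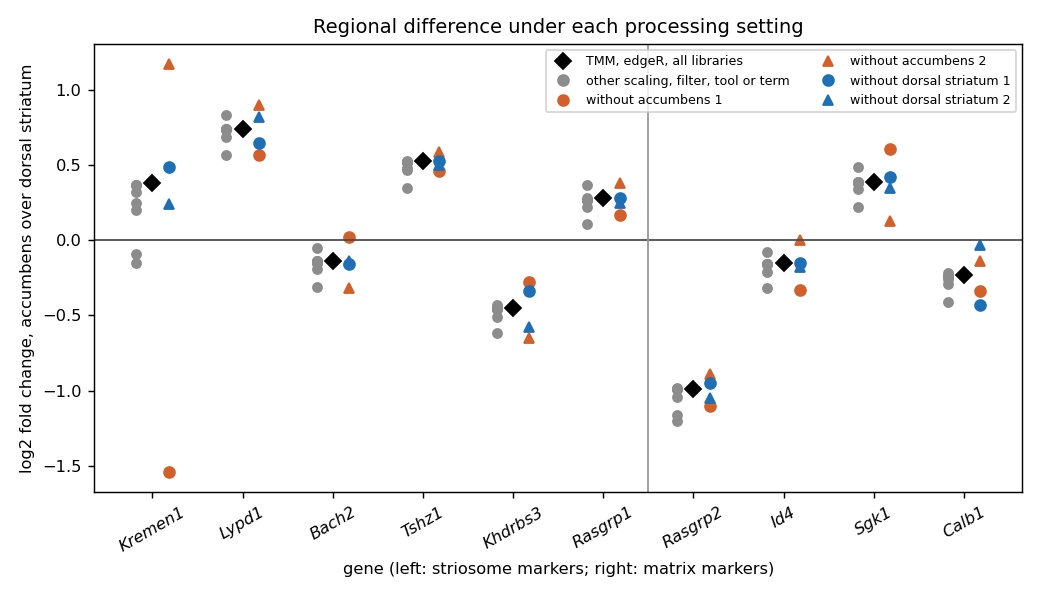
Log2 fold change of each marker under each processing setting. Black diamonds are edgeR with TMM scaling and all libraries, grey circles another scaling, filter, tool or model term, and coloured symbols leave out 1 library. Rasgrp2 stays between -1.20 and -0.89, whereas Kremen1 runs from -1.54 to 1.17.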

How the data were processed

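The authors deposited a file of raw counts, named by gene symbol, for each library. STAR 2.0.0e and HTSeq were used on mm10, per the submitters' processing notes. Annotation and strand setting: not given in the sources used here. Overlapping antisense genes can therefore not be told apart. Rows naming no gene stayed out of library sizes (reads in no feature were 27.5% to 35.4% of all counted rows, ambiguous reads 6.06% to 9.46%, and reads with several alignments 6.98% to 10.2%). Counts carry no molecular identifiers.

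Groups came from the tissue in the titles. Counts were filtered with filterByExpr (minimum count 10), scaled with TMM and compared by edgeR 4.0.16 (quasi-likelihood test, R 4.3.3), region as the only term, two-sided, adjusted by Benjamini-Hochberg over all 14493 genes at a threshold of 0.05. The SE was taken as the absolute log2 fold change over the square root of F. Log2 CPM used a prior count of 2. Alternatives included DESeq2 1.42.0 and limma-voom (limma 3.58.1). Transcript length, GC content (85.7% of tested genes) and coordinates came from GENCODE M21 on GRCm38, whose chromosomes are those of mm10, and promoters from RefSeq. The script was tested on simulated data.

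Whether the libraries came from different animals is not labelled. The p-values then measure only how far these samples spread, which may be technical. Replicates differed beyond sampling noise (chi-square per degree of freedom 16.2 in accumbens and 14.4 in dorsal striatum). Members and lists were chosen with earlier results of these data known. All 10 members were named; from each related list, up to 4 genes past the threshold by size of fold change, or otherwise the 2 of highest mean CPM. Genes named outside this rule are marked as such.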

Additional observations from a re-analysis of the deposited data

How the results depend on the processing

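Of the 10 markers, Lypd1, Tshz1, Khdrbs3, Rasgrp1, Rasgrp2, Sgk1 and Calb1 kept the sign of the log2 fold change in all 12 alternatives. Kremen1 reversed with limma-voom (-0.15) and with the replicate block (-0.09), and ran from -1.54 without accumbens replicate 1 to 1.17 without replicate 2. Bach2 ran from -0.32 to 0.02 when 1 library was left out, and Id4 from -0.33 to 0.00. The count of matrix genes past the threshold rose from 0 to 1 with library size alone, without the low-count filter, with DESeq2, with limma-voom and with the replicate block; in each case this was Rasgrp2. Leaving out 1 library gave 0 to 5 striosome genes, 0 to 2 matrix genes and 109 to 4464 of all genes past the threshold. When an accumbens library was left out, the lone one was assumed to vary like the dorsal pair. Of all genes, 1203 passed without the low-count filter, 884 with DESeq2, 431 with limma-voom and 113 with the GC content offset, against 186; the cause was not tested. Calls were 77.4% higher in accumbens with TMM, 67.4% with upper-quartile scaling, 29.5% with library size alone, 63.8% without the filter, 65% with DESeq2.

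The replicate numbers were shared by the groups but did not pair the libraries by the labels, and deviations of same-numbered libraries correlated at 0.0326. With the replicate block 843 genes passed (5.82%), and the matrix count was 1 (Rasgrp2, edgeR adjusted p 0.0125). The difference between striosome and matrix genes within libraries, which scaling cannot change, was 0.19 to 0.56 when 1 library was left out, and 0.38 with a prior count of 0.5. Kremen1 had 166 and 25 counts in accumbens libraries of near-equal depth (8606099 and 8478403 counts), and the cause of that gap was not tested.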
